A study of Mus musculus with 4 samples.

Results

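The 9 transcription factor genes described here, Meox1, Meox2, Tcf15, Pax1, Pax3, Pax9, Uncx, Mesp1 and Mesp2, were taken by symbol from the 27998 genes counted in every library. They are known for their roles in the somites, the paired blocks of paraxial mesoderm that form along the trunk and give rise to vertebrae, ribs, dermis and skeletal muscle. Their levels were measured in 4 single-cell RNA libraries of mouse embryos, 1 library per stage (embryonic days E8.0 and E8.25, then E9.5 and E10.5). Every library carried the genotype Mesp1Cre;Rosa26-GFPflox/+ on the Swiss Webster strain, and each was prepared from living GFP-positive cells of pooled embryos. In these embryos Cre is made from the Mesp1 locus, so that cells descended from early mesoderm keep a GFP mark, and 1 Mesp1 allele is occupied by Cre in all groups. Its part in the Mesp1 counts was not tested. The earlier pair of libraries came from the upper body, whereas for the later pair the pharyngeal apparatus and the heart were dissected, so stage and region cannot be told apart. With no replicate of any stage, stages are compared without a test.

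Somites bud in sequence from the presomitic mesoderm. Mesp2, with its neighbour Mesp1, acts where the next boundary forms, Tcf15 makes the new somite epithelial, and Meox1 and Meox2 act in patterning the somite. The somite then divides into the sclerotome, the source of vertebrae, marked by Pax1 and Pax9, and the dermomyotome, the source of dermis and muscle, marked by Pax3. Uncx marks the caudal part of each somite and Tbx18 the cranial part.

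After filtering, 7118, 2884, 3921 and 7525 cells were retained in order of stage, with a median of 15205 to 35216 UMIs (distinct captured molecules) per cell. Pairs of libraries shared 16 to 78 cell barcodes. Levels are given as CPM, the UMIs of a gene per 1000000 UMIs of the cells summed. Intervals are 95% and cover counting error only. Cells were sorted into compartments by marker gates that held none of the 9 genes, and a name such as "somite-gated" says which gate a cell passed. The somite gate asked for at least 2 of 7 marker genes, among them Foxc2, Dmrt2, Ripply1, Fst, Sim1 and Lfng, and it took 733, 321, 25 and 76 cells, or 10.3%, 11.1%, 0.638% and 1.01% of each library in order of stage. These numbers changed with the gate setting, as given under the dependence on processing. Meox1 and Tcf15 stood among the 3 genes that led this gate by fold at E8.0 and E8.25, and Tcf15 among its 10 leading genes in all 4 libraries. At E9.5 and E10.5 the head mesoderm gate took 30 cells each, which had Pax3 and Tcf15 among their 10 leading genes, against the name of the gate, and these cells are given no type.

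In genome order on mouse build GRCm38 (mm10), Pax3 lies on chromosome 1 (78101267 to 78197136), Pax1 and Tcf15 on chromosome 2 (147361930 to 147375049 and 152143056 to 152149097) and Uncx on chromosome 5 (139543865 to 139548179). Mesp1 and Mesp2 lie 17136 bases apart on chromosome 7 (79792241 to 79793590 and 79810727 to 79813431). Meox1 is on chromosome 11 (101877510 to 101894354), and Meox2 and Pax9 are on chromosome 12 (37108540 to 37179534 and 56691693 to 56712824). The positions are those of RefSeq genes matched by symbol.

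The early libraries held most of the Meox1 and Tcf15 transcripts. Meox1 stood in order of stage at 91.3 CPM (89.8 to 92.8), 108 (106 to 110), 20.9 (19.9 to 22.0) and 17.5 (16.8 to 18.2). Tcf15 was at 93.9 (92.4 to 95.5), 101 (99.0 to 103), 4.32 (3.85 to 4.83) and 11.9 CPM (11.3 to 12.5). For both genes all 4 levels were separated by more than counting error, with E8.25 the highest library and the lowest at E10.5 for Meox1 and at E9.5 for Tcf15. Meox2, the related homeobox gene, ran the other way, at 2.07, 4.33, 3.75 and 9.56 CPM. E8.25 and E9.5 did not differ beyond counting error for Meox2 (log2 ratio -0.21, interval -0.43 to 0.02), and E10.5 was the highest.

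The Pax genes followed separate courses. Pax3 was at 11.6, 10.3, 1.67 and 5.07 CPM, so that E9.5 was the lowest library. Pax9 had the same low library, at 3.67, 6.02, 1.15 and 3.42 CPM, and E8.0 and E10.5 did not differ beyond counting error (log2 ratio, later over earlier, -0.11, interval -0.29 to 0.08). Pax1 was nearly absent from alternate libraries. It had 9 UMIs (0.0594 CPM) in the E8.0 library, 406 (3.83 CPM) in the E8.25 library, 0 of 70599266 UMIs at E9.5, which allows up to 0.0425 CPM, and 486 at E10.5 (3.80 CPM). Uncx was at 5.16, 5.31, 2.12 and 0.711 CPM, with the early libraries within counting error of each other (log2 ratio 0.04, interval -0.12 to 0.20).

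Mesp1 was highest at E8.0, with 2.41 CPM (365 UMIs), then 0.302 (32 UMIs), 0.113 (8 UMIs) and 0.0625 CPM (8 UMIs) in the later libraries. Mesp2 was at 0.679 (103 UMIs), 0.179 (19 UMIs), 0.113 (8 UMIs) and 0.133 CPM (17 UMIs), with E8.25 lower than E8.0 (log2 ratio -1.92, interval -2.71 to -1.21), and E9.5 within counting error of E8.25 and of E10.5. At E8.0 caudal-gated cells held 36.7% of Mesp1 UMIs and allantois-gated cells 16.4%. The caudal gate took 559 cells at E8.0 and 28 at E8.25, and the presomitic gate 35 and 5. The allantois gate took 794 at E8.0 and none at E8.25. Stage and the cells held thus cannot be told apart here. From E8.0 to E10.5, 6 of the 9 genes were lower beyond counting error (Meox1, Tcf15, Pax3, Uncx, Mesp1 and Mesp2), 2 were higher (Meox2 and Pax1) and Pax9 was neither. Counting error is small at this depth, and 41.6% of 15760 genes were lower and 40.2% higher by the same measure. Blood-gated cells were 2.43% of cells at E8.0 and 13.7% at E10.5, and without them the counts were again 6 lower and 2 higher.

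**Figure D1:**
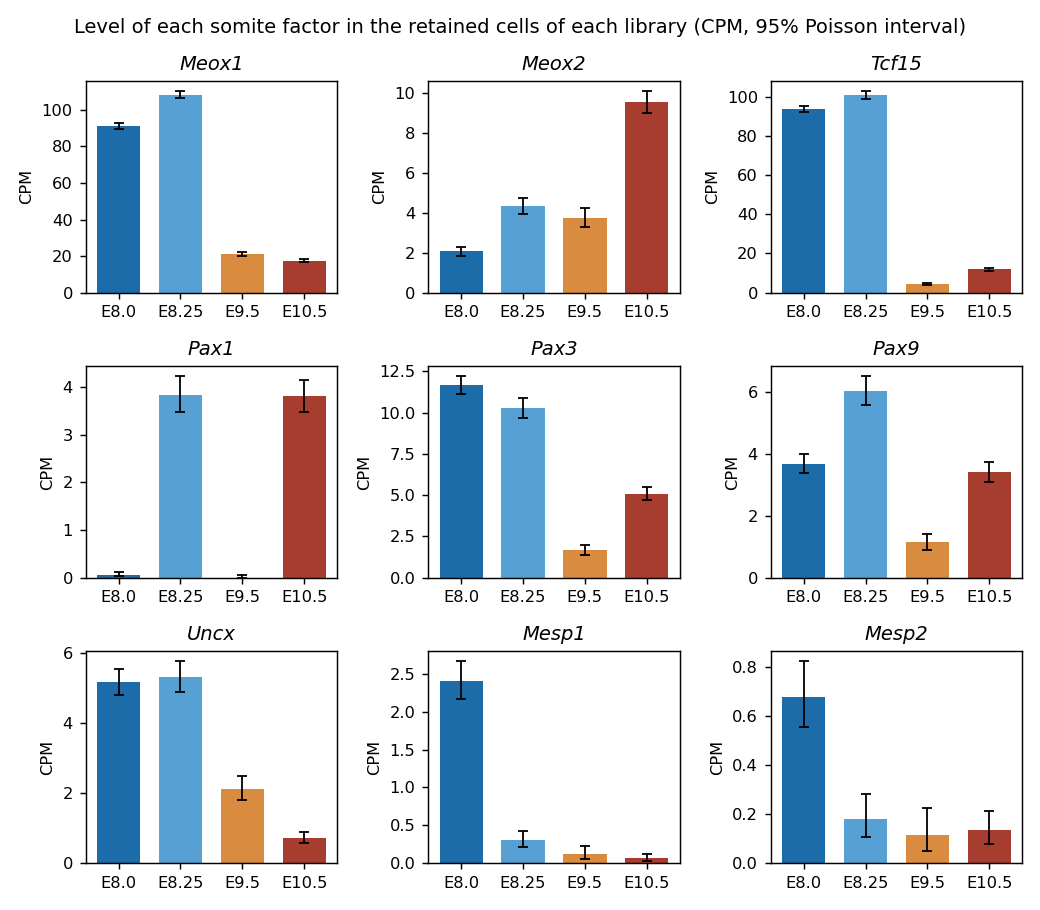
Level of each of the 9 genes (CPM, linear axis from 0, 1 bar per library, error bars the 95% Poisson interval) in all retained cells, in order of stage. Meox1 and Tcf15 are at 91.3 to 108 CPM in the earlier pair and at 4.32 to 20.9 CPM in the later pair, Meox2 is highest at E10.5, and Pax1 has no bar at E9.5, where 0 UMIs were counted.

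In all, 7 of the 9 genes were higher in somite-gated cells than in the other cells of the same library. The gate used none of them, so this asks whether the factors mark the cells that the other somite genes pick out. Gates and members were chosen with earlier results of these data known, so the contrast is not independent of that choice. Meox1, in somite-gated against other cells, stood in order of stage at 498 against 52.5, 372 against 82.3, 131 against 20.3 and 73.6 against 17.0 CPM. Tcf15 was at 487 against 56.4, 411 against 70.3, 84.2 against 3.86 and 86.0 against 11.3 CPM. Meox1 and Tcf15 were thus higher on the somite side in 4 of 4 libraries, against a pool of all other gates. Single gates could stand higher. At E10.5 the 30 head mesoderm-gated cells held 77 Tcf15 and 35 Meox1 UMIs of 501708. Somite-gated cells there held 90 and 77 of 1045967, a lower level of Tcf15. The fold change over the 4 libraries was 2.54 ± 0.20 for Meox1 (log2, SE; edgeR adjusted p = 3.9e-05) and 3.01 ± 0.21 for Tcf15 (adjusted p = 1.9e-05).

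The other 5 genes that passed had higher levels on the somite side in every library that held them, some on few UMIs. Meox2 was at 12.6 against 1.07, 19.7 against 2.81, 42.1 against 3.53 and 43.0 against 9.28 CPM, a log2 fold change of 2.93 ± 0.26 (edgeR adjusted p = 7.1e-05). Its level in somite-gated cells was higher at the later stages, while those of Meox1 and Tcf15 were lower. Pax3 was at 55.8 against 7.42, 28.9 against 8.42, 76.7 against 1.24 and 34.4 against 4.83 CPM (2.90 ± 0.45, edgeR adjusted p = 0.0026). Pax1, higher in 3 of the 3 libraries that held it, was at 0.378 against 0.0289, 19.8 against 2.25, 0 against 0 and 22.9 against 3.64 CPM (2.91 ± 0.31, edgeR adjusted p = 0.00039). The first of these Pax1 pairs rests on 5 and 4 UMIs and the third on none. Uncx was at 25.1 against 3.26, 18.1 against 4.04, 12.4 against 2.07 and 1.91 against 0.701 CPM (2.52 ± 0.24, edgeR adjusted p = 9.9e-05). The last 2 somite-gated values of Uncx rest on 5 and 2 UMIs, and the interval of the last, 0.232 to 6.91 CPM, holds the level of the other cells. Pax9 was at 7.49 against 3.31, 15.3 against 5.10, 12.4 against 1.08 and 27.7 against 3.21 CPM (1.87 ± 0.30, edgeR adjusted p = 0.0031).

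Mesp2 (2.20 ± 0.66, edgeR adjusted p = 0.069) and Mesp1 (-0.25 ± 0.42, edgeR adjusted p = 0.83) did not pass the threshold of 0.05. Against these 7 calls of 9 genes, 2.84% of the 14865 genes tested were called higher. The median log2 fold change was 2.54 over the 9 genes and -0.0063 over all genes tested. The 4 libraries are 4 stages, so the spread behind these p-values includes stage. In an edgeR fit without the library as a block, 0 of the somite factors and 60 genes in all were called. The 7 factors then had log2 fold changes of 2.18 to 3.03, and 6 of them, all but Pax1, passed an unadjusted threshold of 0.05. DESeq2 with the block called the 7.

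**Figure D2:**
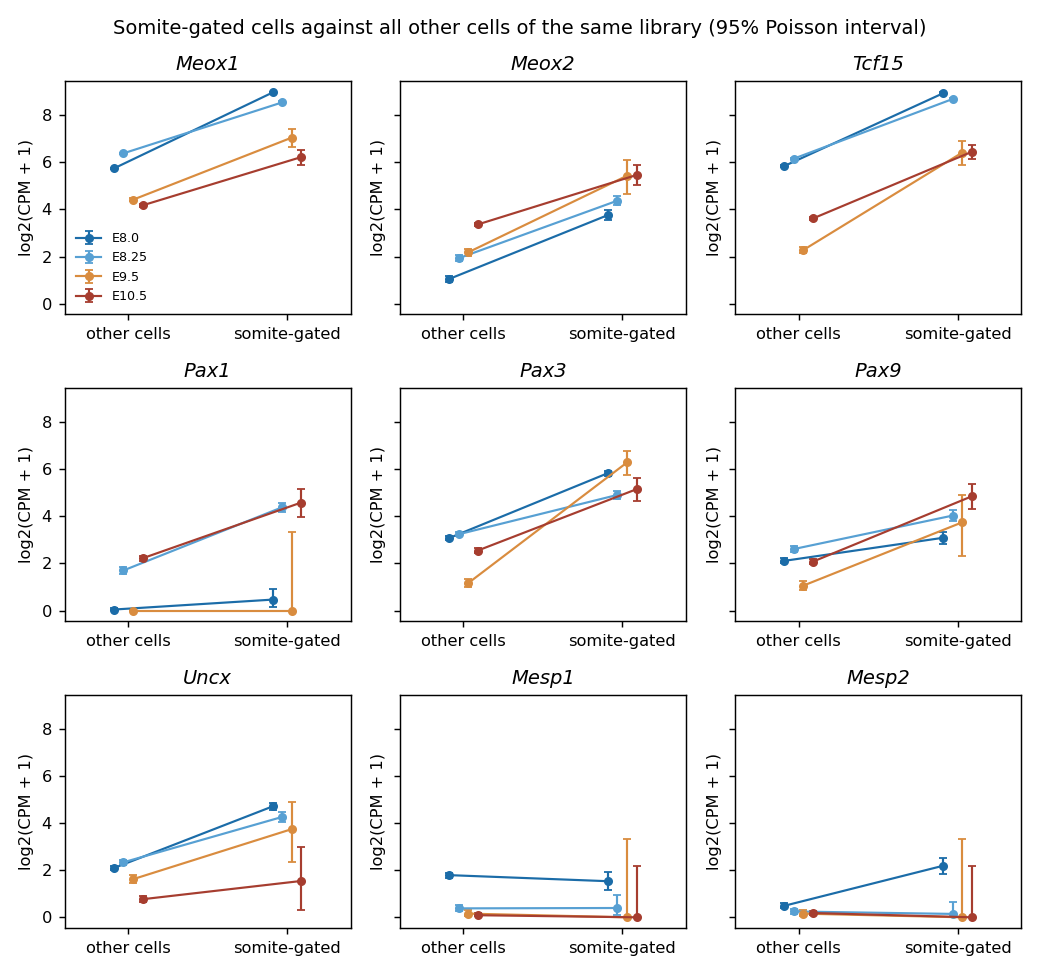
Level of each gene, as log2(CPM + 1), in all other cells (left) and in somite-gated cells (right) of each library, with the 95% Poisson interval and 1 line per library. The lines rise in all 4 libraries for Meox1, Meox2, Tcf15, Pax3, Pax9 and Uncx, whereas those of Mesp1 lie flat or fall slightly.

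Other genes of somite formation were read from lists that held no marker of the somite gate. Tbx6, Msgn1, Hes7, Dll3 and Ripply2 among them mark the presomitic gate, and Myf5 the branchiomeric gate. Cells taken by those gates were counted with the other cells, so for these genes the contrast is partly set by the gating. Of 10 genes of the somite compartments, 9 were tested, 8 were higher in somite-gated cells and none was lower, with a median log2 fold change of 1.403. Among them were Sox9, a cartilage regulator (1.34 ± 0.11, edgeR adjusted p = 5.5e-05), Tbx18 (1.73 ± 0.30, edgeR adjusted p = 0.0052) and Myf5, a determinant of skeletal muscle (2.24 ± 0.41, edgeR adjusted p = 0.0070). Lbx1, a marker of migrating muscle precursors, stood at 0.303 against 0.390 CPM at E8.0 and at 44.0 against 5.60 CPM at E10.5 (2.59 ± 0.67, edgeR adjusted p = 0.038). Myog did not pass and Nkx3-2 was too low to test. Of 7 genes of segmentation, 6 were tested and 1, Cer1, was higher (2.46 ± 0.27, edgeR adjusted p = 0.00044), with none lower. Its level was 54.2 against 7.24 CPM at E8.0 and 0 UMIs in somite-gated cells at E9.5 and E10.5.

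Within somite-gated cells the levels of several factors differed between libraries beyond counting error. The E8.0 and E8.25 libraries both came from the upper body but differed in the cells they held. Caudal-gated cells were 7.85% and 0.971% of them, and allantois-gated cells were 11.2% at E8.0 and absent at E8.25. From E8.0 to E8.25 Pax1 went from 5 to 189 UMIs (log2 ratio 5.71, interval 4.46 to 7.35). Pax9 was higher (1.03, 0.65 to 1.41) and Meox2 was higher (0.65, 0.34 to 0.96). Over the same step Pax3 was lower (-0.95, -1.15 to -0.75), as were Uncx (-0.47, -0.74 to -0.20), Meox1 (-0.42, -0.48 to -0.36) and Tcf15 (-0.24, -0.30 to -0.19). Between E8.25 and E10.5 the log2 ratio was -2.34 (-2.68 to -2.01) for Meox1 and -2.26 (-2.57 to -1.95) for Tcf15, whereas Pax1 (0.21, -0.47 to 0.83) and Pax3 (0.25, -0.29 to 0.75) did not differ beyond counting error. The E10.5 values rest on 76 cells. How many of all genes differed by the same measure within this gate was not counted. Median depth of its cells was 18037 UMIs at E8.0, 27674 at E8.25 and 13574.5 at E10.5. The part of depth in which cells passed the gate was not tested.

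To compare cells of unequal depth, cells with at least 10000 UMIs were thinned to 10000 and called positive at 1 UMI. This left 6180, 2859, 3490 and 6076 cells, and 938, 25, 431 and 1449 shallower cells were set aside. Within somite-gated cells at E8.0, 71.1% were positive for Meox1 and 84.9% for Tcf15 (591 cells), and at E8.25 the shares were 66.7% and 77.4% (318 cells). Blood-gated cells, which should lack both genes, were positive in 4.76% and 5.36% at E8.0, 13.3% and 16.4% at E8.25, and 0.828% and 0.725% at E10.5. Their median depth was 34124, 51316 and 27974 UMIs, against 18037, 27674 and 13574.5 for somite-gated cells. The E8.25 blood cells thus held 27.6 CPM of Meox1 and 32.0 of Tcf15, and levels at or under these in other E8.25 compartments were read as background. Before thinning, 27.9%, 49.0%, 15.1% and 16.4% of all cells held Meox1.

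Meox1 was seen in a larger share of Tcf15-positive cells in the early than in the later libraries. Of Tcf15-positive cells, 53.6% (51.2 to 56.0) also held Meox1 at E8.0, and in the later libraries 60.0% (56.8 to 63.2), 32.3% (23.3 to 42.5) and 30.9% (26.0 to 36.2). Of Meox1-positive cells, 67.1%, 63.3%, 8.58% and 13.5% held Tcf15. Meox1 was positive in 21.7%, 31.1%, 10.7% and 12.5% of all cells, so that cells with both genes were 2.47, 1.93, 3.02 and 2.48 times as many as independence would give. Within somite-gated cells the ratio was 1.13 at E8.0 and 1.19 at E8.25, where 95.95% and 91.98% of Meox1-positive cells held Tcf15. Requiring at least 2 UMIs moved the shares of Tcf15-positive cells with Meox1 to 67.3%, 70.7%, 52.0% and 19.4%, so that the E9.5 share was higher and the E10.5 share lower than at 1 UMI. With 13.3% and 16.4% of E8.25 blood-gated cells positive for Meox1 and Tcf15, the E8.25 overlap includes background, whose part was not tested.

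Across 54 sums of a compartment in a library, Tcf15 was the gene most like Meox1 among 9279 genes (Pearson's r 0.86 of log2 of CPM plus 5), ahead of Rgma (0.84) and Smoc1 (0.81). The same measure placed Pax3 with Tcf15 (0.77), Pax9 with Foxd1 (0.82), Uncx with Itih5 (0.81), Meox2 and Pax1 with Tnfaip6 (0.77 and 0.62) and Mesp1 with Dll3 (0.76). Genes under a mean of 5 CPM were not ranked, and among these Mesp2 stood at 0.80 with Mesp1, and Pax9 at 0.69 with Pax1. Dll3 is a marker of the presomitic gate, where Mesp1 was at 29.2 CPM at E8.0, so this likeness is partly set by the gating. The sums share libraries and depth, and the coefficients are descriptions.

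**Figure D3:**
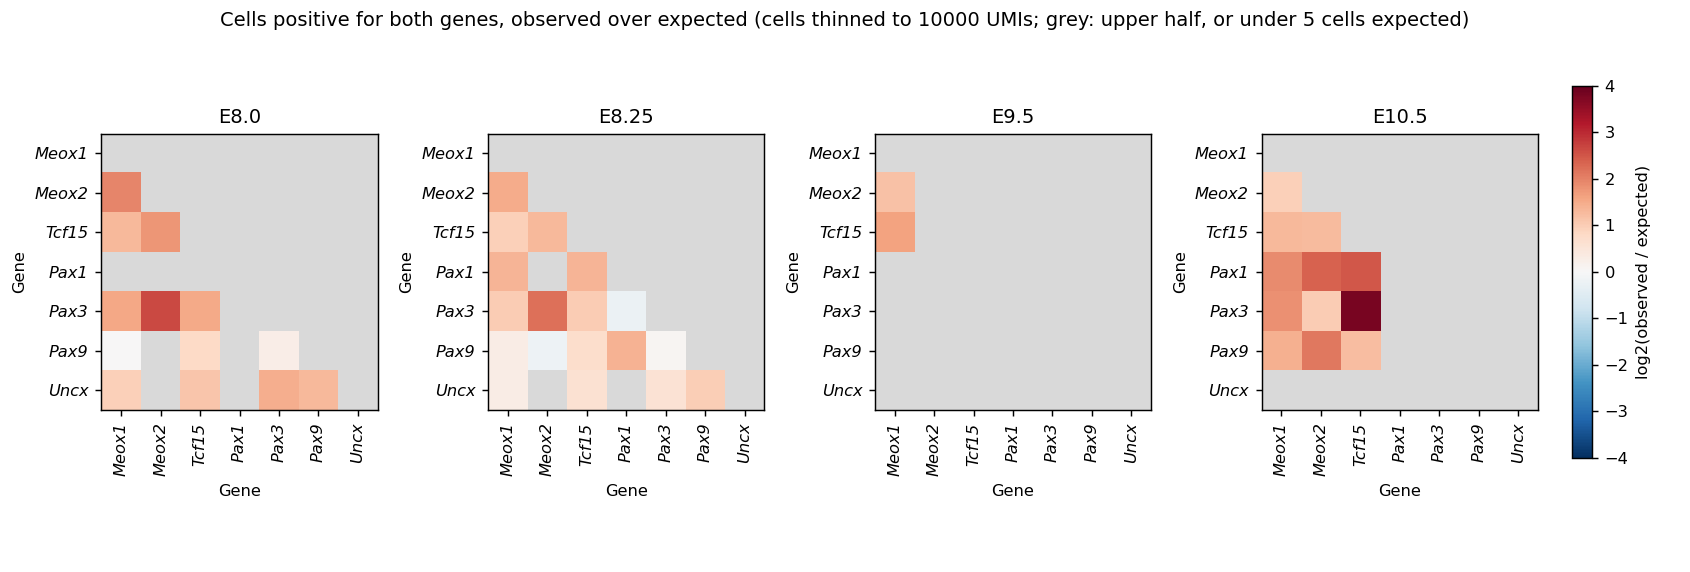
Log2 of the observed over the expected number of cells positive for both genes, for pairs of 7 genes in each library (cells thinned to 10000 UMIs; Mesp1 and Mesp2 left out; grey where under 5 cells were expected). The deepest red is Tcf15 with Pax3 at E10.5, 13.8 times the expected number, and Pax3 with Pax1 or Pax9 at E8.25 is near white.

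Most Pax3-positive cells at E10.5 held Tcf15 and most held Lbx1, while cells with both of these were not counted. Of 117 Pax3-positive cells, 88 held Tcf15 (75.2%), 13.8 times the 6.35 expected, and 85 held Lbx1 (72.6%, 63.6 to 80.5), against 0.755% of Pax3-negative cells. Myf5 was found in 36.8% (28.0 to 46.2) of them against 3.93%. At E9.5, 17 of 21 Pax3-positive cells held Lbx1 (81.0%, 58.1 to 94.6), against 0.259% of the others. At E8.25 that share was 2.84% of 211 cells. Cells that passed no gate held 45.5% of Pax3 UMIs at E10.5 and 44.1% at E9.5.

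At E8.25 Pax3 was also found outside the somite gate, in cells gated by neural crest markers among others. The mesenchyme gate held 27.0% of Pax3-positive cells, the somite gate 26.1% and the neural crest gate 13.7%. The 81 neural crest-gated cells, with Tfap2b and Sox10 among their leading genes, held Pax3 at 53.4 CPM (46.0 to 61.6), and 35.8% of them were positive, against 1.82 CPM in blood-gated cells. Neural crest is a known site of Pax3. Meox1 was at 8.76 and Tcf15 at 14.7 CPM in the same cells, under the blood-gated levels. Sox10 was found in 11.8% (7.82 to 17.0) of Pax3-positive cells and in 2.45% of Pax3-negative cells of that library. The 26 cells of the neural gate held Pax3 at 55.3 CPM (40.2 to 74.2), with Meox1 at 66.6.

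Pax1 and Pax9 were detected with each other and with Sox9 and Foxc2 at E10.5. Both Pax1 and Pax9 were found in 33 cells where 2.70 were expected. Pax9 and Pax3 shared 0 cells of 166 and 117 (3.20 expected; interval of the share of Pax9-positive cells 0 to 2.20%), and Pax1 and Pax3 shared 3 (1.91 expected). Fewer than 5 cells were expected for each of these 3 pairs, so the ratios are not read. Sox9 was found in 66.7% (56.5 to 75.8) of Pax1-positive cells and in 66.3% (58.5 to 73.4) of Pax9-positive cells, against 23.4% and 22.9% of negative cells. Foxc2, a marker of the somite gate, was found in 56.6% and 53.6%, against 13.2% and 12.8%. Mesenchyme-gated cells held 44.4% of Pax1-positive and 42.8% of Pax9-positive cells, and ungated cells 36.4% and 32.5%, whereas the somite gate held 6.06% and 9.04%.

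The stretches of 250 bases before a RefSeq start of Pax1 and Pax9 are shown because these related genes were detected in the same cells. In GRCm38 the Pax1 window is chr2:147364744-147364993 (+ strand) and the Pax9 window chr12:56695221-56695470 (+ strand), each given 5′ to 3′, and both lie within the annotated span of the gene. Capitals mark an E-box, CANNTG (the letters bound by Tcf15, Mesp1, Mesp2 and other bHLH factors), or a T-box core, GGTGTG (the letters bound by Tbx6 and Tbx18 among others), searched on both strands.
Pax1: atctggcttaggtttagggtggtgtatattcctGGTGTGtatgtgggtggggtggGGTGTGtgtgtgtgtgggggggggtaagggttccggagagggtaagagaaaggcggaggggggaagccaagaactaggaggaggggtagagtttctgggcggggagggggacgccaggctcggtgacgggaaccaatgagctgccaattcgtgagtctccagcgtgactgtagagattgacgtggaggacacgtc
Pax9: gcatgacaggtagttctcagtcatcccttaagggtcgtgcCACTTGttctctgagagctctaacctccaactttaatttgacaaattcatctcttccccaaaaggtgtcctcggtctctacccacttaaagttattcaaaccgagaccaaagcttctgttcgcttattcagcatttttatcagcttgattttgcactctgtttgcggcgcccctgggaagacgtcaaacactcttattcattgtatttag
Pax1 held 0 E-boxes and 2 T-box cores, and Pax9 held 1 E-box and 0 T-box cores, with no overlap between motifs. E-boxes were found in 66.2% and T-box cores in 16.3% of 32851 promoter windows of this length. A match of letters says nothing of binding.

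Within the somite gate at E8.25, Pax1-positive cells often held Tbx18, the cranial somite gene, and Uncx-positive cells seldom did. Tbx18 was found in 55.3% (38.3 to 71.4) of 38 Pax1-positive cells against 20% (15.5 to 25.2) of Pax1-negative cells. For Uncx the share was 4% (0.101 to 20.4) of 25 positive cells against 25.9% (21.0 to 31.4) of negative cells. The E8.0 library gave 8.70% (3.26 to 18.0) of 69 Uncx-positive cells against 19.7% (16.4 to 23.4). These intervals cover counting over cells of a single pooled library, and no test was made. Pax1-positive cells also held Aldh1a2, the retinoic acid synthesis enzyme of early somites, in 92.1% (78.6 to 98.3) against 38.9% (33.2 to 44.9).

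Pax9-positive and Meox1-positive cells of the E8.0 somite gate differed in the same enzyme. In this gate 71.1% of cells were Meox1-positive, and whether the others are somite cells was not tested. Aldh1a2 was found in 73.1% (68.6 to 77.3) of Meox1-positive cells against 8.19% (4.55 to 13.4) of Meox1-negative cells. For Pax9 it was 10.6% (3.55 to 23.1) of 47 positive cells against 58.1% (53.8 to 62.3). Sox9 ran the other way, at 11.9% (8.96 to 15.4) of Meox1-positive cells against 53.8% (46.0 to 61.4), and at 42.6% (28.3 to 57.8) of Pax9-positive cells against 22.4% (19.0 to 26.2). Meox1 and Pax9 were found together in 12 of these cells where 33.4 were expected, and Pax3 and Pax9 in 6 where 17.6 were. Meox2-positive cells were all Tcf15-positive (53 of 53 cells) and 98.1% were Meox1-positive. At E8.25, Sox9 was found in 20% (10.4 to 33.0) of Pax3-positive against 65.02% (58.9 to 70.8) of Pax3-negative somite-gated cells.

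**Figure D4:**
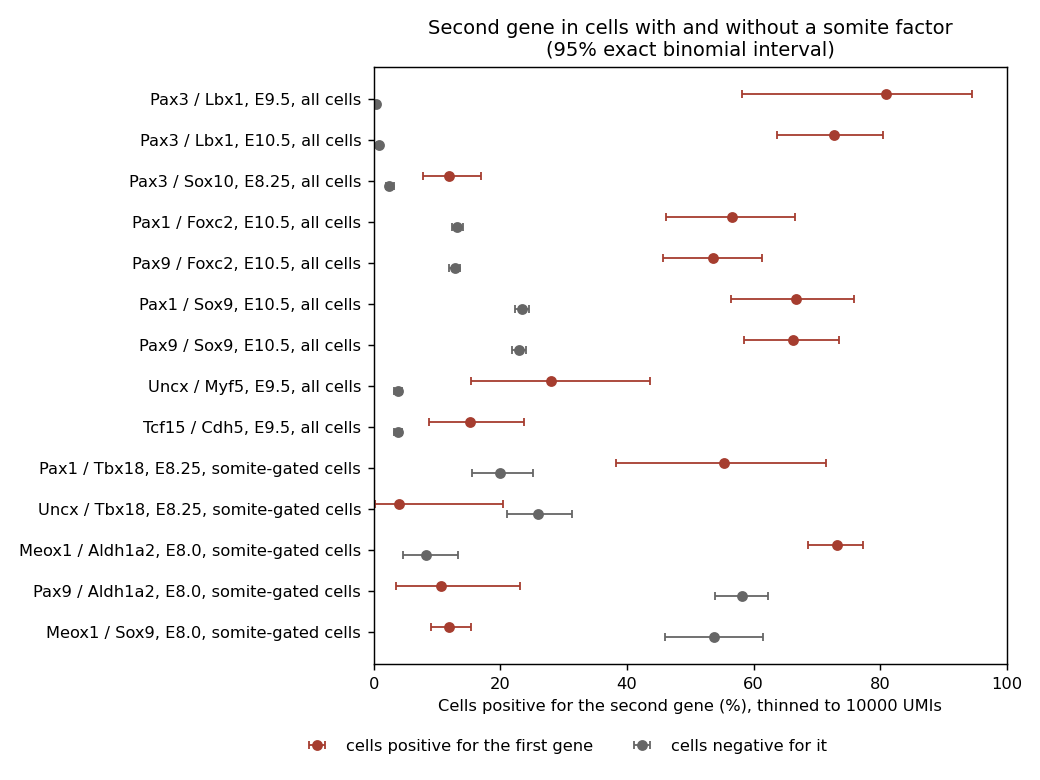
Share of cells positive for a second gene among cells positive (red) and negative (grey) for a somite factor, in the library and cells named at left, with the 95% exact binomial interval. Lbx1 is in 72.6% to 81.0% of Pax3-positive cells at E9.5 and E10.5, and the red and grey points change sides for Uncx and Tbx18, for Pax9 and Aldh1a2, and for Meox1 and Sox9.

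Outside the somite gate, the mesenchyme gate held more Meox1 UMIs per UMI than all non-somite cells together in each library, and the heart field progenitor gate did so in all but E8.0. The mesenchyme gate, whose cells were led by Fst, Prrx1 and Twist1 at E8.0, held 31.0%, 37.2%, 39.0% and 35.7% of Meox1 UMIs, at 122, 156, 40.6 and 29.8 CPM. Fst is also a marker of the somite gate. Tcf15 was among the 10 leading genes of the mesenchyme gate at E8.0, at 143 CPM with 35.4% of its UMIs. Whether this gate took somite cells was not tested. Cells gated by progenitor markers of the second heart field, the later source of heart muscle, held Meox1 at 49.3, 93.8, 33.8 and 35.4 CPM, against 52.5, 82.3, 20.3 and 17.0 in all non-somite cells. Cardiomyocyte-gated cells of the same libraries were at 5.50, 18.2, 1.98 and 4.54 CPM. Tcf15 in the heart field progenitors was at 35.7 and 36.9 CPM early and at 2.77 and 5.20 later, and Tcf15 made up 42.0%, 28.2%, 7.56% and 12.8% of the UMIs of both genes. At E8.25 this Tcf15 level was little above the 32.0 CPM (29.5 to 34.7) of blood-gated cells, and the share there is not read. In somite-gated cells it made up 49.4%, 52.5%, 39.1% and 53.9%.

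Later endothelial cells held Tcf15 almost without Meox1. Endothelial-gated cells, led by Cldn5 and Emcn, had Tcf15 at 12.2 CPM (8.98 to 16.3) in the E9.5 library and 21.1 CPM (17.9 to 24.8) in the E10.5 library, against 0.989 and 1.05 CPM in cardiomyocyte-gated cells and 0.602 CPM in blood-gated cells at E10.5. Meox1 was at 0.780 and 3.55 CPM in the same cells, and Tcf15 was 94.0% (83.5 to 98.7) and 85.6% (79.5 to 90.5) of the UMIs of both genes. After thinning, 9.19% and 10.3% of endothelial-gated cells held Tcf15. Cdh5, a junction gene of endothelium that is also a marker of this gate, was found in 15.2% (8.74 to 23.8) of Tcf15-positive against 3.80% of other cells at E9.5, and in 8.79% (5.96 to 12.4) against 5.26% at E10.5. At E8.25 the endothelial level, 21.2 CPM, was under that of blood-gated cells.

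Uncx UMIs were spread over the somite and other gates early and lay mostly in the branchiomeric gate later. The branchiomeric gate is set by muscle progenitor genes of the pharyngeal arches, Myf5 among them. At E8.0 the somite gate held 42.4% of Uncx UMIs and the branchiomeric gate 0.255%, and at E9.5 they held 3.33% and 85.3%. The branchiomeric level was 10.9 CPM (9.12 to 13) in the E9.5 library and 4.31 CPM (3.21 to 5.67) in the E10.5 library. Of 43 Uncx-positive cells at E9.5, 37 passed the branchiomeric gate and 12 held Myf5 (27.9%, 15.3 to 43.7), against 3.77% of Uncx-negative cells. At E10.5 Myf5 was in 28.6% (14.6 to 46.3) of 35 cells against 4.42%, and Tbx18 in 0 of 35.

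Meox2 and Pax9 were likewise spread over other gates. At E9.5 the branchiomeric gate held 47.5% of Meox2 UMIs (10.8 CPM, against 1.11 in cells gated as posterior heart field), and at E10.5 it was at 18.9 CPM and the posterior heart field gate at 13.6 CPM. Pax9 in head mesoderm-gated cells was at 11.9 CPM at E8.0 and 9.91 at E8.25, where Alx1 was among the leading genes, and the somite gate was at 7.49 and 15.3 CPM. Heart field progenitors held 12 of 39 Pax9-positive cells at E9.5 (30.8%, 17.0 to 47.6) and were 7.11% of cells.

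**Figure D5:**
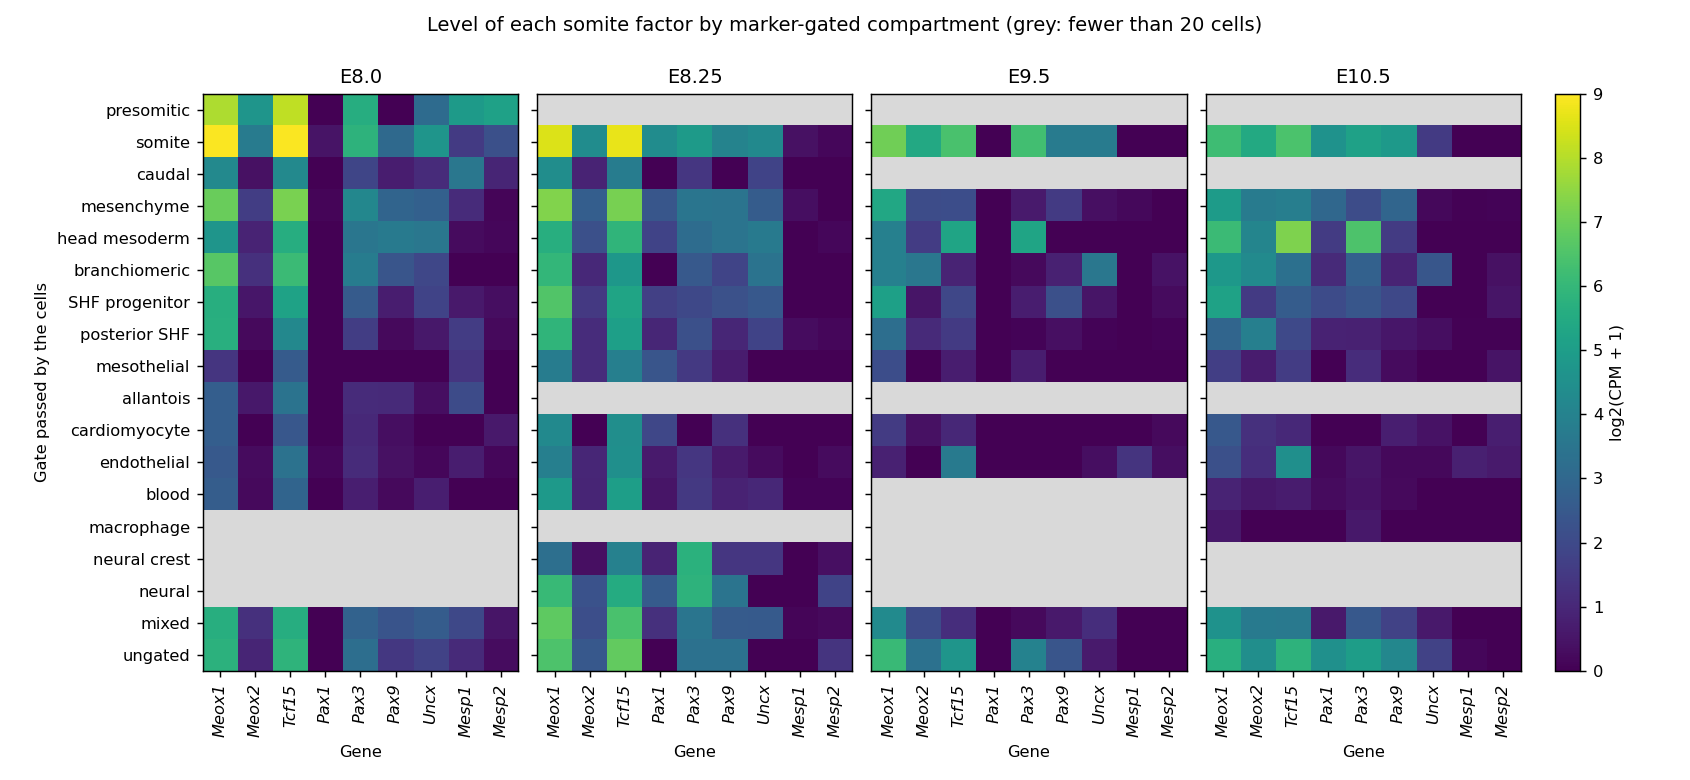
Level of each gene as log2(CPM + 1) (colour) in each gate (rows) and library (panels); grey marks gates with fewer than 20 cells. The presomitic and somite rows are brightest for Meox1 and Tcf15 at E8.0, the endothelial row keeps Tcf15 at E9.5 and E10.5, and Mesp1 and Mesp2 stand out in the presomitic row.

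Mesp1 and Mesp2 had higher levels in presomitic-gated cells than in the whole E8.0 library, but most of their UMIs lay in other gates. These 35 cells, gated by Tbx6, Msgn1, Hes7, Dll3 and Ripply2, held Mesp1 at 29.2 CPM (22 UMIs) and Mesp2 at 34.5 CPM (26 UMIs), against 2.41 and 0.679 CPM in the whole library. They held 6.03% of Mesp1 and 25.2% of Mesp2 UMIs, and the somite gate held 45.6% of Mesp2 UMIs. Mesp1 was also at 10.8 CPM in caudal-gated cells, set by Cdx genes and T, which held 36.7% of its UMIs, and at 3.18 CPM in allantois-gated cells. Both genes were found together in 12 cells at E8.0, of 231 with Mesp1 and 35 with Mesp2, and these 12 held 75 of the 103 Mesp2 UMIs. A single somite-gated cell held 42 Mesp2 and 13 Mesp1 UMIs, with 3 of Ripply2, 2 of Tbx6 and 22 of Tcf15. Without it the somite gate had 5 Mesp2 UMIs (0.379 CPM) in place of 47 (3.56 CPM).

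At E8.25, 2 of the 5 presomitic-gated cells held 18 of the 32 Mesp1 UMIs and 8 of the 19 Mesp2 UMIs. Later no cell held more than 1 UMI of either gene. Of the 8 Mesp1 UMIs at E9.5, 6 were in endothelial-gated cells, as were 5 of 8 at E10.5, and these cells were 5.56% and 5.06% of their libraries. Mesp2 had 1 of 8 and 4 of 17 there.

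The bases before the starts of Mesp1 and Mesp2 are shown because these neighbouring genes were found together in single cells. The Mesp1 window is chr7:79793591-79793840 (- strand) and the Mesp2 window chr7:79810477-79810726 (+ strand) of GRCm38, with capitals as above.
Mesp1: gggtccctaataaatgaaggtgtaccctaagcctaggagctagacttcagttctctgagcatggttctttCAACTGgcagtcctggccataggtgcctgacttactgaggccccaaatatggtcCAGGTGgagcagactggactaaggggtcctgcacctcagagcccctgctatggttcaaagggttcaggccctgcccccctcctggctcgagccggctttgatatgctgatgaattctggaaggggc
Mesp2: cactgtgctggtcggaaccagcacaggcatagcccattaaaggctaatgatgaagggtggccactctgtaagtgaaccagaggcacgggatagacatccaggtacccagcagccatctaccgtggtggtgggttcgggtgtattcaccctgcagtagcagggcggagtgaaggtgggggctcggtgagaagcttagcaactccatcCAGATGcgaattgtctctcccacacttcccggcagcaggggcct
Mesp1 held 2 E-boxes and Mesp2 held 1, and neither held a T-box core in this window. The same search of the Meox2 window found 1 E-box and of the Uncx window none of either motif.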

How the data were processed

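Single cells were profiled with the 10x Chromium 3′ kit, version 2. The authors aligned reads to mm10 with Cell Ranger 3.1.0 (per the labels) and deposited raw UMI counts per gene and cell for 27998 genes. These counts were not normalized. Cells with at least 1000 genes and at most 10% mitochondrial UMIs were retained. Doublets were scored with Scrublet (scanpy 1.11.5), and the top scores were removed at 0.8% per 1000 cells, which removed 459, 70, 131 and 517 cells. Compartments were assigned by 17 marker gates (the gate with the largest share of its list detected; ties mixed; none ungated), and sums of fewer than 20 cells were not reported. Some marker genes are not reported here. UMIs were summed per library over somite-gated and over other cells and tested with edgeR 4.0.16 (R 4.3.3; quasi-likelihood test, filterByExpr, TMM, library as a block, Benjamini-Hochberg adjustment over all genes tested, threshold 0.05). The fit was also run on simulated counts with planted changes but no differences between stages, so it was not checked on stages that differ. DESeq2 1.42.0 was an alternative. The study tested cells within clusters, whereas libraries are the unit here. Each library pooled embryos of 1 stage, so p-values measure the spread between these libraries. Levels carry exact Poisson and shares exact Clopper-Pearson intervals. Ratios carry conditional binomial intervals. The limit for a count of 0 is 3 counts. UMIs limit PCR duplicates, but intervals cover counting error only. Gates, gene lists and members were chosen with earlier results of these data known. The 13 second genes tabulated beside the members, and those named from them, were chosen after their values were seen. The genes most like a member were the top 3 of those with a mean of at least 5 CPM. Promoter windows came from a RefSeq table (GRCm38.p6), which matched 6 of the 9 genes. Meox1, Tcf15 and Pax3 had no entry. Python 3.11.15, numpy 2.4.6, scipy 1.17.1 and pandas 2.3.3 were used.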

Additional observations from a re-analysis of the deposited data

How the results depend on the processing

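The number of somite factors called in the somite gate contrast was 7 or 8 under every alternative run except the fit without the library block, where it was 0. The number of genes called in all was 1280, against 60 without the block, and it was 672 to 1490 when a library was left out in turn (672 without E8.25). The E10.5 against E8.0 count of 6 lower genes did not change under TMM scaling, without blood-gated cells, without doublet removal or without the cell filter. Mesp1, not called, changed direction to 0.21 (log2) with DESeq2, 0.34 in the fit lacking the block and 1.86 when presomitic-gated cells joined the somite side, and was called lower (-1.65) when gates were set on thinned cells. Mesp2 was called without E8.25 (2.79), without E10.5 (2.41) and with presomitic-gated cells (3.76), and was not called with DESeq2 (1.32) or with gates set on thinned cells (0.18), against 2.20. The median over all genes was 0.12 with DESeq2 and -0.10 without the low-count filter, against -0.0063. The setting with 1 more marker in every gate left only E8.0 and E8.25, with 765 and 432 somite-gated cells. Gates set on cells thinned to 10000 UMIs took 961, 598, 28 and 52 somite-gated cells in order of stage, against 733, 321, 25 and 76. At 2 or more UMIs, the share of Tcf15-positive cells with Meox1 was 67.3%, 70.7%, 52.0% and 19.4% in order of stage. Without thinning it was 50.3% at E8.0 and 36.5% at E10.5. The causes of these shifts were not tested. After E8.25, Mesp1 and Mesp2 values rest on 8 to 17 UMIs a library, and those of the somite gate at E9.5 on 25 cells.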

Other observations

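The 831 cells that passed no gate at E10.5 were led by Tcf15, Mpo, Foxd1, Lum and Pax3, with Lbx1, Myog, Sox9 and Col2a1 also among their 10 leading genes by fold. They were 11.0% of cells and held 42.6% of Pax1, 45.5% of Pax3, 36.8% of Pax9, 34.8% of Tcf15 and 25.3% of Uncx UMIs, at 21.8, 31.1, 17.0, 55.8 and 2.42 CPM. Their median depth was 10348 UMIs, against 15205 for the library, and the part of depth in their missing every gate was not tested.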
